A study of Mus musculus with 6 samples.

Results

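Small leucine-rich proteoglycans (SLRPs) are secreted core proteins built around leucine-rich repeats, most of which carry chondroitin, dermatan or keratan sulfate chains. They bind collagen fibrils and set fibril width and spacing, and several of them also bind growth factors or cell surface receptors. In the brain they are best known from meningeal and perivascular cells rather than from neurons. The 10 genes described here, of 17830 named genes on the array, were taken by gene symbol and cover the 3 classical structural classes. Class I is represented by Bgn, Dcn and Aspn, class II by Prelp, Omd, Fmod, Lum and Kera, and class III by Ogn and Epyc. The family itself was selected on measured values of the Foxp1 comparison, the lower levels of Prelp and Bgn, so the levels and differences of its members are given as a description and support nothing.

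The study hybridised total RNA from 6 samples of the STHdh striatal cell line to Illumina mouse beadchips carrying 25697 probes. STHdh lines are immortalized cells derived from embryonic mouse striatum and grown in culture. In 3 samples the cells carried transfected Foxp1, which encodes a transcriptional regulator of the forkhead family (titles mFoxp1-1 to mFoxp1-3), and 3 were controls whose titles carry the plasmid name pcDNA and whose genotype field reads wild-type. Both groups are the same cell line, and the labels give no time after transfection, no share of transfected cells and no statement on whether the replicates were separate cultures, so the p-values reflect sample-to-sample spread that could be purely technical.

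Foxp1 itself had intensities of 4967, 4979 and 5250 on the Foxp1 arrays, against 688, 621 and 1048 on the control arrays. An array detected between 11789 and 12342 probes at a detection p-value under 0.05. Before normalization the replicate 3 array of each group was the brightest, with a median probe intensity of 64.5 for Foxp1 and 77.0 for control, against at most 38.3 on the other 4 arrays. Of the fixed markers of striatal projection neurons, 8 of the 10 on the array were detected on no array, and the remaining 2 were Ppp1r1b (DARPP-32), detected on 1 Foxp1 array and 3 control arrays, and Drd2, detected on 3 Foxp1 arrays and 2 control arrays. Nes and Sox2, neural progenitor markers, and Col1a1, Pdgfra and Twist1, which mark fibroblast-like cells, were detected on all 6 arrays.

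Promoter sequences of 8 members were found in the RefSeq promoter table (build GRCm38.p6), and those of Dcn and Lum were not used here. The 250 bases before the annotated start are shown for Prelp, Omd and Bgn because these 3 genes have the lowest values relative to control in the family. Capitals mark the forkhead core TGTTT and its reverse complement AAACA. The Prelp window is chr1:133921402-133921651 on the minus strand, the Omd window chr13:49582212-49582461 on the plus strand, and the Bgn window chrX:73483351-73483600 on the plus strand.
Prelp: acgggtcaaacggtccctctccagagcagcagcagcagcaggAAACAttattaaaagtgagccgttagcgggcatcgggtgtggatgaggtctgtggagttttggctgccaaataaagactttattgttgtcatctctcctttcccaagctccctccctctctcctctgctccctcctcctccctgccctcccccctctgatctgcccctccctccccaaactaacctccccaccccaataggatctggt
Omd: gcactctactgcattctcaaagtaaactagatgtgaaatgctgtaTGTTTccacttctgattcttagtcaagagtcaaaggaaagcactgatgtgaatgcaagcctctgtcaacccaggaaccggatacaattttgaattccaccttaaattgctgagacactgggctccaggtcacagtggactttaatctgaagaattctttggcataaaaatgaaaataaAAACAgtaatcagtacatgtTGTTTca
Bgn: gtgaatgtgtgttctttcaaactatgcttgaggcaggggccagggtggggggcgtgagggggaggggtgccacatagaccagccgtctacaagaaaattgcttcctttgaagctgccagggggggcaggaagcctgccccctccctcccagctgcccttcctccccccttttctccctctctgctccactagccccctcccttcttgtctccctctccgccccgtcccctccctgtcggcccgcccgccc

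The core TGTTT occurred 1 time in the Prelp window, 3 times in the Omd window and 0 times in the Bgn window, counting both strands. It was present in 46.4% of the 32851 promoter windows of the same length in the table. The longer forkhead words TGTTTAC and TATTTAC, which were searched on both strands and of which the first contains the core, were in none of these 3 windows. They occurred in 3.17% and 2.73% of all windows. Among the members with a window, Epyc alone held either word, with TGTTTAC in one annotated promoter and TATTTAC in the other, and no array detected an Epyc probe. These matches are descriptions of the letters and carry no information on Foxp1 binding. The 3 windows differed in composition, with 55.6% G and C bases for Prelp, 38.4% for Omd and 64.4% for Bgn, against a median of 52.4% over all windows.

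The members fall into gene clusters in the RefSeq gene order. Optc, Prelp and Fmod are neighbours, as are Ecm2, Aspn, Omd and Ogn, and Dcn, Lum, Kera and Epyc, while the protein-coding neighbours of Bgn are not SLRPs. Within a cluster, detection and calls varied, and whether neighbours differed in response was not tested. Prelp fell and its neighbour Fmod, at a log2 difference of -0.28, did not pass, while Optc, an SLRP of the eye, was detected on no array. Omd fell, its neighbour Ogn, at -0.45 by its brighter probe, passed only with the replicate number as a block or with array weights, and Aspn and Ecm2 were detected on no array. In the cluster of Dcn, only Dcn was detected.

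The array carries 15 probes for the 10 genes, and detection differed between genes and also between the probes of Dcn, Fmod and Ogn. Probes were kept for testing when at least 3 of the 6 arrays detected them, which left 7 member probes for 6 genes: Prelp, Omd, Bgn, Ogn (2 probes), Fmod and Dcn. The other 4 genes, Aspn, Lum, Kera and Epyc, were detected on no array. Kera and Epyc are known mainly from cornea and cartilage, and Lum is a widespread keratan sulfate proteoglycan of connective tissue. Aspn is a class I member with an aspartate-rich amino terminus. The lowest detection p-value of these 4 genes on any array was 0.130, for Aspn on Foxp1 replicate 1. Its intensities were 26.0, 24.8 and 35.2 on the Foxp1 arrays, against 8.79, 17.4 and 21.0 on the control arrays, all within the range of undetected probes. The plot of detection p-values shows that no class was uniformly present or absent.

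**Figure D1:**
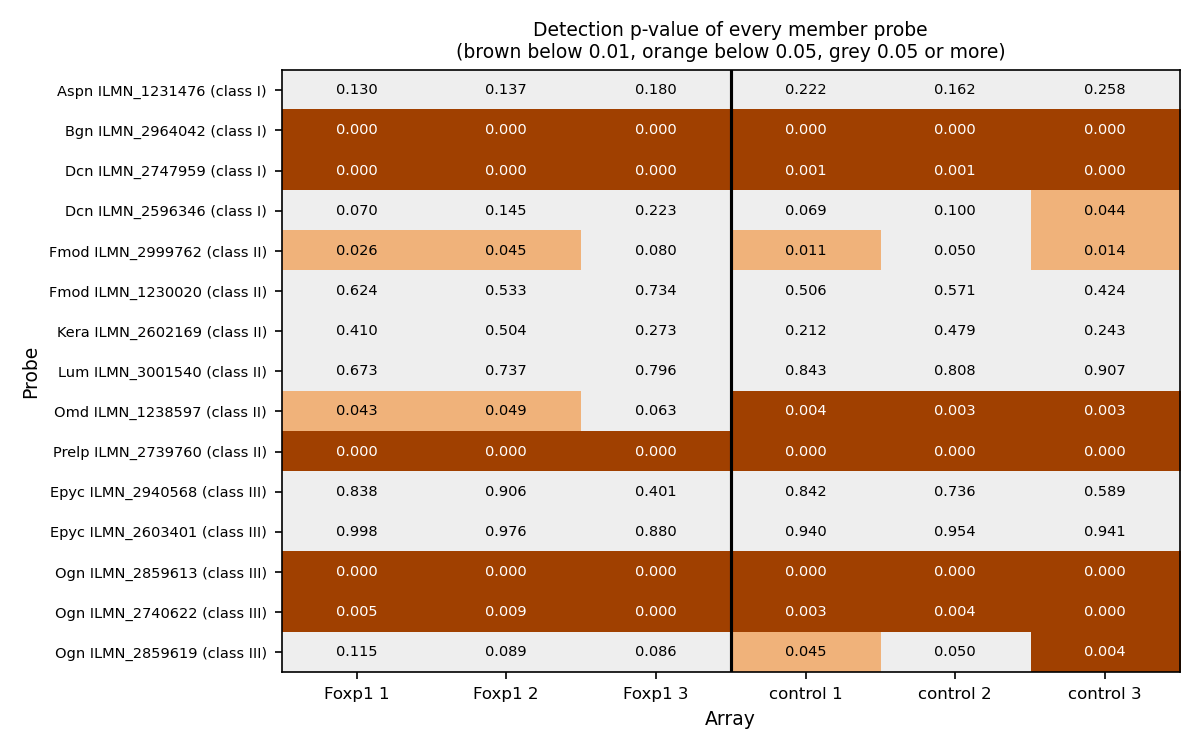
Detection p-values of the 15 member probes (rows, by structural class) on the 3 Foxp1 arrays (left) and 3 control arrays (right), coloured by whether they lie below 0.01, below 0.05 or above. The probes of Prelp and Bgn, 1 of 2 for Dcn and 2 of 3 for Ogn lie below 0.01 on all 6 arrays, Omd does so on the control arrays only, and Aspn, Lum, Kera and Epyc are detected nowhere.

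Prelp, Omd and Bgn were lower in Foxp1-transfected cells, and no member was higher. Of the 7 kept member probes, 3 were called lower, 0 higher and 4 did not pass, where a call is an adjusted p under 0.05 in limma with Benjamini-Hochberg adjustment over all 12136 kept probes. Over all kept probes, 1.06% were called lower and 1.55% higher. Since the contrast itself led to the choice of the family, nothing is read from that comparison. All 7 kept member probes had negative differences, with a median log2 difference of -0.45, against 6135 negative and 6001 positive differences and a median of -0.0026 over all kept probes. In 4 of the 7 the Foxp1 arrays all lay below the control arrays, as they did for 13.4% of all kept probes. In these bulk samples, fewer cells that make a transcript and less transcript per cell cannot be told apart.

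Class II held the 2 members with the lowest differences. Prelp, whose protein binds collagen and, through a basic amino terminus, heparan sulfate, had intensities of 748, 738 and 1224 on the Foxp1 arrays, against 1306, 1218 and 3556 on the control arrays. After normalization its log2 level was 9.77, 9.83 and 9.90 in Foxp1-transfected cells, against 10.82, 10.70 and 11.22 in controls. The 3 Foxp1 values lay close together and all below the controls, and control replicate 3 was the highest. The log2 difference was -1.08 ± 0.14 (SE, n = 3 per group), or 2.12-fold lower. This was the 8th lowest difference of the 12136 kept probes. Without control replicate 3 the log2 difference was -0.93, and without Foxp1 replicate 1 or 2 the call was lost (limma adjusted p = 0.0582 and 0.0578) at log2 differences of -1.05 and -1.08.

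Omd, osteomodulin, a keratan sulfate SLRP known from bone matrix, had intensities of 52.8, 49.6 and 82.1 on the Foxp1 arrays, against 91.4, 119 and 220 on the control arrays. Its detection p was 0.0426, 0.0489 and 0.0627 on the Foxp1 arrays, against at most 0.00376 on the control arrays, which puts it at the edge of detection in Foxp1-transfected cells. The normalized log2 level was 6.35, 6.26 and 6.25 in Foxp1-transfected cells, against 7.20, 7.51 and 7.27 in controls, and the groups did not overlap. The log2 difference was -1.03 ± 0.11 (SE, n = 3 per group), or 2.05-fold lower, the 11th lowest of all kept probes. The Foxp1 levels of Omd lay near the lowest level of any detected probe on those arrays, which was between 6.25 and 6.35, so the size of its fold is uncertain. It was -1.24 without a background model and -0.84 in the authors' processed values. Omd kept its call whichever of the 6 arrays was left out.

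Fmod, fibromodulin, a keratan sulfate SLRP that shares a collagen-binding role with Lum, was close to background. Its kept probe had intensities of 62.2, 52.1 and 66.6 on the Foxp1 arrays, against 59.9, 46.3 and 138 on the control arrays, and it was detected on 2 arrays of each group. The groups overlapped, and the log2 difference of -0.28 ± 0.15 (SE, n = 3 per group) did not pass. The remaining Fmod probe was detected on no array. A small difference in Fmod could therefore be missed at this signal, and for Lum and Kera a difference was not measurable.

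**Figure D2:**
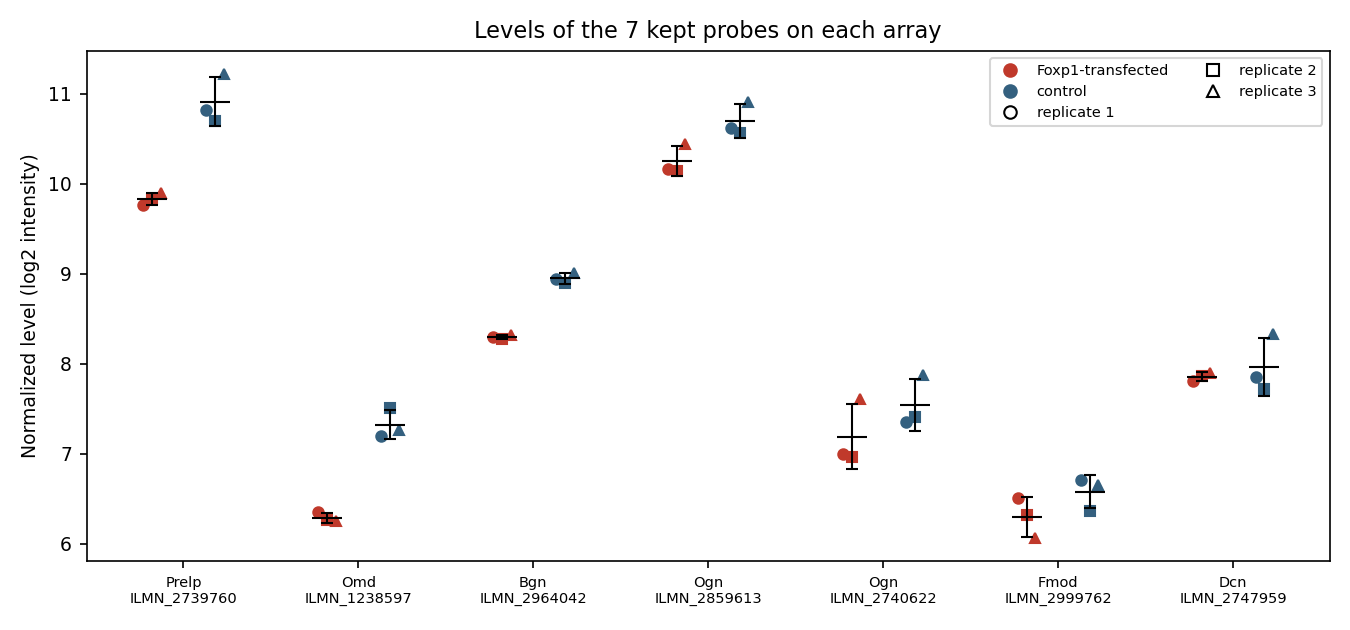
Normalized log2 level of the 7 kept member probes on each array, with the 3 Foxp1 arrays (red) left of the 3 control arrays (blue); bars give the mean ± SD and marker shapes the replicate number. The groups are apart for Prelp, Omd, Bgn and the brighter Ogn probe and overlap for the second Ogn probe, Fmod and Dcn.

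Among class I members, Bgn was called lower and Dcn, its close structural relative, did not pass, and the difference between them was not tested. Bgn, biglycan, carries chondroitin or dermatan sulfate chains and can act as a soluble ligand of Toll-like receptors. It had intensities of 251, 243 and 402 on the Foxp1 arrays, against 347, 339 and 768 on the control arrays. Its log2 level was 8.30 ± 0.02 (SD, n = 3) in Foxp1-transfected cells and 8.95 ± 0.06 (SD, n = 3) in controls. The spread within each group was small and the groups were well apart. The log2 difference was -0.65 ± 0.09 (SE), or 1.57-fold lower, and it lay between -0.68 and -0.62 whichever array was left out. The Bgn call was nevertheless lost without Foxp1 replicate 1 or 2 (limma adjusted p = 0.0657 and 0.0676), where its log2 difference was -0.64 in both.

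Dcn, decorin, which binds collagen and transforming growth factor beta, had a brighter probe with intensities of 176, 180 and 298 on the Foxp1 arrays, against 153, 141 and 482 on the control arrays. The Foxp1 arrays lay inside the control range. On the log2 scale the levels were 7.81, 7.87 and 7.90 in Foxp1-transfected cells, against 7.85, 7.72 and 8.33 in controls. The log2 difference was -0.11 ± 0.16 (SE, n = 3 per group) and did not pass. Control replicate 3 alone set its sign, since without that array the difference was 0.071. The dimmer Dcn probe was detected only on control replicate 3.

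Ogn, osteoglycin or mimecan, is the one class III member with kept probes, and its 3 probes pointed the same way. The brightest had intensities of 995, 916 and 1810 on the Foxp1 arrays, against 1128, 1107 and 2900 on the control arrays. Its log2 levels were 10.17, 10.14 and 10.44 in Foxp1-transfected cells, against 10.62, 10.56 and 10.92 in controls, so the groups did not overlap, although the replicate 3 array was the highest in both. The log2 difference was -0.45 ± 0.13 (SE, n = 3 per group), or 1.36-fold lower, and did not pass (limma adjusted p = 0.132). Taken by replicate number, the 3 log2 differences were -0.45, -0.42 and -0.47, and with the replicate number as a block this probe passed (limma adjusted p = 0.0477), which makes 4 member probes called lower in that fit. For the second kept probe, with a log2 difference of -0.35 ± 0.21 (SE), the groups overlapped. It did not pass with the block either (limma adjusted p = 0.0903). The third probe was detected on no Foxp1 array and 2 control arrays and was not tested. Its control mean was 1.24-fold above the lowest detected levels on the Foxp1 arrays, mainly through control replicate 3, at a log2 level of 7.18. This is no firm bound, since control replicate 2 did not detect the probe (detection p 0.0501). Control replicates 1 and 2 lay at 6.26 and 6.36, near the lowest detected levels on the Foxp1 arrays (6.25 to 6.35).

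**Figure D3:**
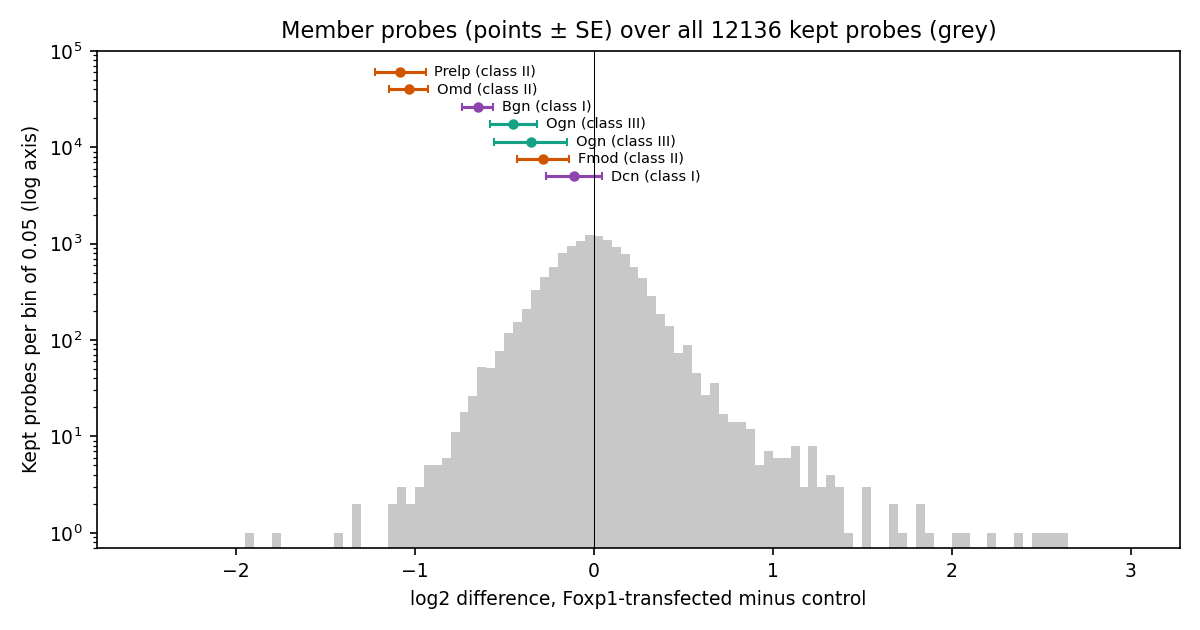
Log2 difference (Foxp1-transfected minus control) of the 7 kept member probes as points with their SE, coloured by class, above the distribution of all 12136 kept probes in grey on a log axis; the height of the points has no meaning. Prelp at -1.08 and Omd at -1.03 lie in the far left tail, Bgn at -0.65 nearer in, and Dcn at -0.11 within the bulk.

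The differences of the members were thus not of one size, ranging from -1.08 for Prelp to -0.11 for Dcn, and whether any pair of members differed in response was not tested. The members also varied with the replicate number. Control replicate 3 was the highest control for Prelp, Bgn, Dcn and both kept Ogn probes, and replicate 3 was the array with the highest raw brightness. Leaving out both replicate 3 arrays kept 3 member probes lower, with log2 differences of -0.96 for Prelp, -1.04 for Omd and -0.64 for Bgn.

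**Figure D4:**
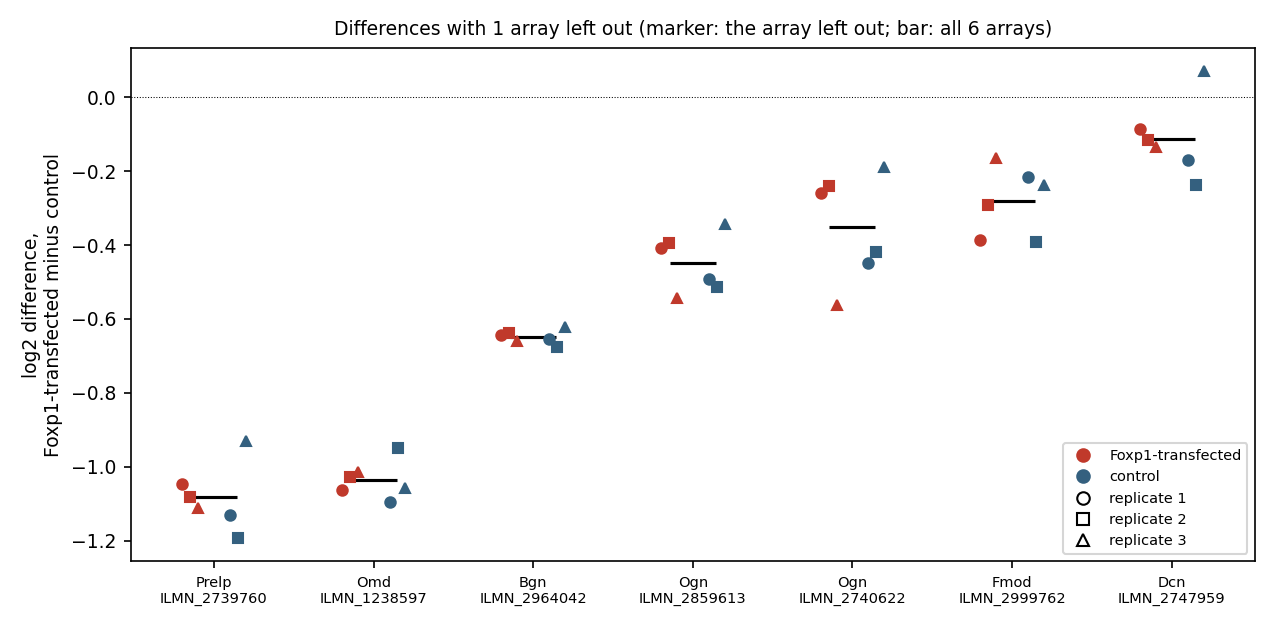
Log2 difference of each kept member probe with all 6 arrays (black bar) and with 1 array left out (markers, coloured by the group and shaped by the replicate of the array left out). Bgn and Omd stay in a narrow range, while Dcn runs from -0.24 to 0.071 and crosses 0 without control replicate 3.

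The genes whose levels followed those of Prelp most closely were sought among 11782 kept probes of other genes, by the mean absolute difference between log2 levels centred on each probe's own mean over the 6 arrays. The closest were Tle2, a Groucho-type corepressor, at 0.101, Ncald, a neuronal calcium sensor, at 0.102, and Nrep, a small neuronal protein, at 0.112. For Bgn the closest were Prickle3, a planar cell polarity protein, at 0.0198, Loxl1, a cross-linking enzyme of elastic fibres, at 0.0407, and Cbln1, a synaptic organizer, at 0.044. Between Prelp and Bgn themselves the value was 0.217. The points of this measure are the same 6 arrays and include the group difference, so nothing is read from it on shared function or control.

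Genes that build, modify, cleave or bind SLRPs were examined in 7 lists. Of 128 distinct genes named, 118 were on the array and 69 had a kept probe, each represented by its brightest one. Of these 69 genes, 1 was called higher and 3 lower, and 65 did not pass, where 1.58% of all 8789 tested genes were called higher and 1.15% lower. The lists held 48 negative and 21 positive differences with a median log2 difference of -0.16, against -0.0019 over all tested genes.

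The single riser was P2rx7, an ATP-gated ion channel that biglycan is reported to engage together with Toll-like receptors in macrophages. Its brightest probe had intensities of 140, 108 and 249 on the Foxp1 arrays, against 23.8, 11.1 and 40.5 on the control arrays. All 3 Foxp1 arrays and no control array detected it, and its log2 difference was 1.75 ± 0.15 (SE, n = 3 per group, limma adjusted p = 0.00163). Because controls were below detection, only a bound on the fold holds, at least 2.27-fold higher, and without a background model the log2 difference was 2.72. P2rx7 has 2 further kept probes, which were likewise detected on no control array and rose at least 1.31-fold and at least 1.46-fold (limma adjusted p = 0.00519 and 0.0031). These 3 probes met the detection filter through the Foxp1 arrays alone, which favours a difference. With no detection filter they also passed (limma adjusted p = 0.00946 for the brightest, 0.0211 and 0.0127 for the others). The brightest passed whichever array was left out, with limma adjusted p-values up to 0.0125. Those fits reused the probes kept on all 6 arrays. Without a Foxp1 array this probe would not meet the filter, so they add no separate support. The gene thus passed in the direction opposite to Bgn. The other 16 tested genes among SLRP receptors and ligands included Tlr2 at -0.36 ± 0.21 (SE) and Tlr4 at -0.31 ± 0.17 (SE) on the log2 scale, neither of which passed (limma adjusted p = 0.41 and 0.382).

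In the same list of 17 tested receptors and ligands, Bmp4, a morphogen that biglycan binds, fell. Its intensities were 757, 719 and 1467 on the Foxp1 arrays, against 1107, 1272 and 2161 on the control arrays. The log2 difference was -0.71 ± 0.13 (SE, n = 3 per group, limma adjusted p = 0.0347), and the call was lost without Foxp1 replicate 1 or 2 or control replicate 1 or 2 (limma adjusted p up to 0.158). It was also lost without a background model (limma adjusted p = 0.0516) and with no detection filter (0.0734). The remaining 15 genes, the 3 transforming growth factor beta ligands among them, did not pass, and the list median was -0.18. The log2 differences of these ligands were -0.60 for Tgfb3, -0.34 for Tgfb1 and -0.19 for Tgfb2 (limma adjusted p = 0.0615, 0.124 and 0.393). At an unadjusted limma p under 0.05 there were 5 of the 17 genes, P2rx7 and Bmp4 included, where 18.5% of all tested genes had such a p.

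Most enzymes that make the sugar chains did not pass. Of 14 tested genes of chondroitin and dermatan sulfate synthesis, the chains of Bgn and Dcn, 0 passed with limma (1 at an unadjusted p under 0.05, as had 18.5% of all tested genes), 10 had negative and 4 positive differences, and the median was -0.14. The smallest unadjusted p was that of Chst12, a chondroitin 4-sulfotransferase, with a log2 difference of -0.42 ± 0.12 (SE, n = 3 per group, limma adjusted p = 0.126). Of 7 tested genes of keratan sulfate synthesis and sulfate supply, Chst1 fell and 6 did not pass. Chst1, the keratan sulfate galactose 6-sulfotransferase, had intensities of 2589, 2165 and 3980 on the Foxp1 arrays, against 2999, 3009 and 6498 on the control arrays. Its log2 difference was -0.54 ± 0.10 (SE, n = 3 per group, limma adjusted p = 0.0364), and the call was lost whichever array was left out (limma adjusted p from 0.0557 to 0.159). Median scaling (0.0723), no detection filter (0.0525) and leaving out both replicate 3 arrays (0.0563) ended it too, as limma adjusted p-values.

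Of 11 tested genes of proteoglycan cleavage, Mmp2, a gelatinase that can also cleave decorin, fell and 10 did not pass, among them Bmp1, the proteinase that removes the Bgn propeptide. Mmp2 had intensities of 592, 539 and 909 on the Foxp1 arrays, against 694, 694 and 1572 on the control arrays. Its log2 difference was -0.51 ± 0.09 (SE, n = 3 per group, limma adjusted p = 0.0335), a call that was also lost whichever array was left out (limma adjusted p from 0.0506 to 0.155). Median scaling and leaving out both replicate 3 arrays ended it too (limma adjusted p = 0.0631 and 0.0663).

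In the remaining 3 lists 0 genes passed with limma by their brightest probe, while at an unadjusted p under 0.05 there were 2 other leucine-rich proteoglycans, 3 collagen genes and 4 other proteoglycans, where 18.5% of all tested genes had such a p. Of 2 tested leucine-rich proteoglycans outside the 10 members, Podnl1 differed by -0.61 ± 0.15 (SE, n = 3 per group, limma adjusted p = 0.0808) on the log2 scale. Tsku went the other way, at 0.46 ± 0.19 (SE, limma adjusted p = 0.249). Of 7 tested fibrillar and fibril-associated collagen genes, on which SLRPs act, Col2a1 had the smallest p (log2 difference 0.36 ± 0.10, SE, n = 3 per group, limma adjusted p = 0.124), and the list median was -0.23. This Col2a1 probe was detected on 3 Foxp1 arrays but on only 1 control array. A second, dimmer Col2a1 probe met the detection filter through the Foxp1 arrays alone, and its call (limma adjusted p = 0.0477) was lost with no filter (0.0971). Of 11 tested other proteoglycans, the syndecan Sdc4 had the smallest p (log2 difference 0.53 ± 0.13, SE, n = 3 per group, limma adjusted p = 0.0911). Cd44, a hyaluronan receptor, has 5 kept probes, of which 1 was called higher (limma adjusted p = 0.0277, but 0.0531 when undetected probes were tested too) and 4, its brightest among them, did not pass.

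**Figure D5:**
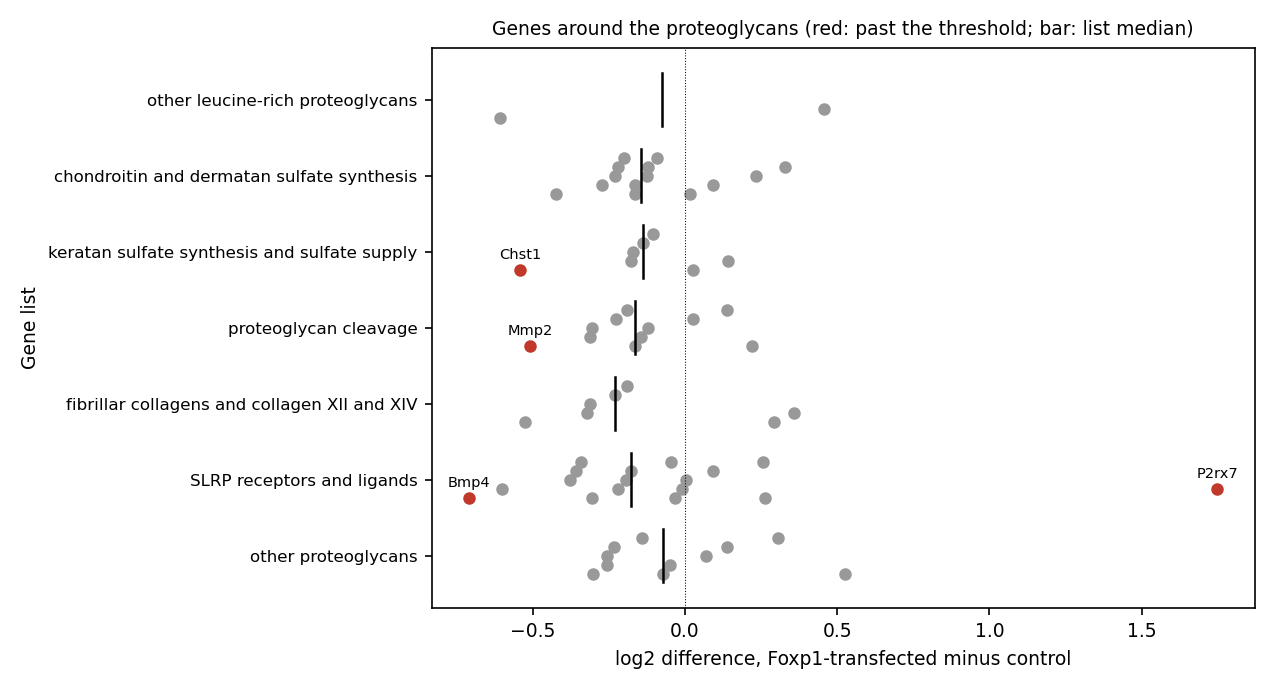
Log2 difference (Foxp1-transfected minus control) of each tested gene of the 7 lists around the proteoglycans, each by its brightest kept probe; red points passed the threshold and black bars are list medians. P2rx7 at 1.75 stands alone on the right, Bmp4, Chst1 and Mmp2 are the 3 genes called lower, and all 7 medians lie below 0.

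Of 10 markers of fibroblast and meningeal cells, the known SLRP-making cells of the brain, 6 were tested, 1 was called lower and 5 did not pass. Over all 8789 tested genes, 1.15% were called lower. At an unadjusted limma p under 0.05 there were 3 of the 6, where 18.5% of all tested genes had such a p. Pdgfra, a growth factor receptor of mesenchymal cells, was the one called (log2 difference -0.61, limma adjusted p = 0.0471), and with the replicate number as a block it was not (0.0524). The log2 differences of the other 5 lay between -0.53 for Col3a1 and -0.040 for Twist1. The summed normalized level of the 6 lay between 6761 and 7383 on the Foxp1 arrays, against 7895 to 8957 on the control arrays. Col1a2, Thy1, Ptgds and Slc6a13 of that list were detected on no array, and Col1a1 and Col3a1 stand in the collagen list too. For pericyte and smooth muscle markers the summed level of 4 tested genes lay between 20925 and 22636 on the Foxp1 arrays, against 22577 to 25653 on the control arrays, of which Acta2 alone made up at least 97.0%. Without Acta2 it lay between 551 and 636 on the Foxp1 arrays, against 688 to 728 on the control arrays, and by their brightest probes 0 of the 4 genes passed with limma (0 also at an unadjusted p under 0.05). Acta2 has 4 kept probes, of which 1 dimmer one was called lower at a log2 difference of -0.49 (limma adjusted p = 0.0477), a call that was lost when no filter on detection was applied (0.0642).

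Tmem119, listed as a microglia marker and also known from bone-forming cells, fell. Its intensities were 113, 91.1 and 143 on the Foxp1 arrays, against 266, 250 and 459 on the control arrays, with a log2 difference of -1.41 ± 0.13 (SE, n = 3 per group, limma adjusted p = 0.00202). The other 5 microglia markers were detected on no array. Of 2 tested astrocyte markers, 1 had a negative and 1 a positive difference, and neither passed. Slc1a3, a glutamate transporter, differed by -0.61 ± 0.18 (SE, n = 3 per group, limma adjusted p = 0.137), but passed with the replicate number as a block (0.0455). Aldh1l1, detected on 2 Foxp1 arrays and 1 control array, differed by 0.16 ± 0.18 (SE, limma adjusted p = 0.686). Gfap, Aqp4 and S100b were detected on no array. Of 5 endothelial markers, 4 were detected on no array. The part of any of these cell type markers in the lower SLRP levels was not tested.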

How the data were processed

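The deposited intensity table gives, per the file headers, an intensity and a detection p-value for each of 25697 probes on 6 arrays. GenomeStudio is the tool named in the submitters' processing notes. Negative intensities made up 29.5% to 31.6% of each array, which shows that the authors' intensity values are background-subtracted. The authors also deposited processed values, taken here to be log2 since each column tracks the log2 intensity of its own array (r of deviations 0.922 to 0.975). Their medians are 6.32, their normalization is not given in the sources used here, and they served as an alternative.

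Intensities were corrected and quantile-normalized with limma 3.58.1 (neqc, offset 16, R 4.3.3). Kept probes (12136, 47.2%) reached a detection p under 0.05 on 3 or more arrays. Groups were compared per probe with limma (lmFit, eBayes, 2-sided) and Benjamini-Hochberg adjustment over the kept probes at 0.05. The fit was also run on simulated data with independent noise on each array, which lack the deviations shared by same-numbered arrays. List genes are represented by their brightest kept probe. Array symbols were updated through RefSeq (GRCm38.p6, used for names, gene order and promoters), with 17548 probes current, 7082 synonyms of 1 gene, 116 of several and 951 unmatched. Precision is limited by the number of arrays. Where a group had no detecting array, the fold is a bound against the higher of the probe's own level and the lowest detected level on each array. It holds as a bound only where all arrays of the other group detected the probe.

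Members and lists were chosen with earlier results of these data known. All 10 members are named. From each list the genes past the threshold are named, or else the one with the smallest p, besides Foxp1, the 3 genes most like Prelp and Bgn, and up to 3 markers of a list. Other genes were named after their values were seen. Same-numbered arrays of both groups deviated together from their group means (r = 0.257, 0.115 and 0.401), which is the basis for treating the numbers as pairs, although replicate 2 of Foxp1 followed a control array of another number more closely than its own. Alternatives were other normalizations and filters, array weights, the replicate block and arrays left out.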

Additional observations from a re-analysis of the deposited data

How the results depend on the processing

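The number of probes called over the array was 317, against totals of 207 with no detection filter, 1034 with array weights and between 67 and 359 when 1 array was left out. The 3 calls among member probes held under the 8 settings other than leaving out 1 array, except that Omd and Fmod do not meet the stricter detection filter, which left 2 calls. With the replicate block or with array weights there were 4, the fourth being the brighter Ogn probe. Leaving out 1 array gave between 1 and 3 member calls. The median log2 difference of the member probes lay between -0.56 and -0.34 in those fits. The number of pathway genes called was 4, against totals of 2 with median scaling, 2 with no detection filter, 2 without both replicate 3 arrays, 12 with array weights and 1 to 3 with 1 array left out. The replicate block left 4 pathway genes called and, among the kept member probes and the kept probes of the 69 tested pathway genes, changed no call other than that of Ogn, which it gained. Among cell type markers it ended the call of Pdgfra (0.0524) and gave one to Slc1a3 (0.0455), as limma adjusted p-values. P2rx7 does not meet the stricter filter and otherwise passed in each alternative, where fits with arrays left out reused the probes kept on all 6. The log2 difference of Dcn turned positive with array weights (0.024), without both replicate 3 arrays (0.050) and without control replicate 3 (0.071), with a range from -0.24 to 0.071 over the fits without 1 array. Array weights are estimated from the same 6 arrays. Each fit without an array also rests on fewer samples. Levels near background limit what can be said of Omd, Fmod and P2rx7, whose log2 difference without a background model was 2.72.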
